A study of Mus musculus with 9 samples.

Results

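Epithelial cells are held together by tight junctions, which seal the apical border of the sheet, and by desmosomes, which tie neighbouring cells through their keratin filaments. A small group of transcription factors and splicing regulators keeps this programme on, and mesenchymal cells lack much of it. The 9 genes described here are Tjp1, Ocln, Dsp, Epcam, Muc1, Grhl2, Ovol1, Esrp1 and Esrp2, chosen by name as markers of epithelial identity and polarity out of 21938 protein-coding genes of GENCODE M21 (mouse, mm10). For each gene, the annotated transcript 5′ ends and the 2.0 kb around them were searched for non-methylated islands (NMIs), and the density of CpG was taken within 500 bp of the outermost 5′ end, the one farthest upstream.

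NMIs are stretches of DNA whose CpG dinucleotides carry no methylation. BioCAP collects them by affinity: sheared genomic DNA is incubated with the immobilised CXXC domain of KDM2B, a zinc finger domain that binds CpG only when it is not methylated, and what is retained is sequenced. Most mammalian CpG is methylated, while the CpG-rich stretches at gene starts known as CpG islands usually are not, and methylation of such a stretch goes with a silent promoter. The library came from C127, an established mouse mammary epithelial cell line grown in serum-containing medium, with neither a treatment nor a genetic change given in its labels. The list held 13491 NMIs from 1 BioCAP library, with a position but no height for each. There were thus no replicates, no p-values could be formed, and the depth behind each NMI is unknown. A gene without an NMI is a gene at which the list held none, which is not in itself a measurement of methylation. The 3 4sU RNA, 3 ATAC and 2 input libraries of the series were not analysed here, so that the epithelial label of the cells could not be checked by expression and no level of RNA stands beside the values below.

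An NMI covered an annotated 5′ end at 2 of the 9 epithelial genes, Muc1 and Tjp1, whereas 47.5% of all protein-coding genes had one. At the outermost 5′ end an NMI was found for Muc1 only, beside 42.5% of protein-coding genes. Within 2000 bp of a 5′ end Esrp2 joined them, making 3 of 9 genes, beside 49.7% of protein-coding genes. Ocln, Dsp, Epcam, Grhl2, Ovol1 and Esrp1 had no NMI within that distance. Distance mattered little to this count, which was 2 within 250 bp (48.2% of protein-coding genes) and within 1000 bp (49%), and 3 within 5000 bp (51.9%). Over the 41 distinct 5′ ends of the 9 genes, 3 lay in an NMI, beside 38.4% of the distinct 5′ ends of all protein-coding genes. These 3 belonged to 4 of 47 transcripts, beside 39% of the transcripts of protein-coding genes. Of the 41, 8 are starts of retained-intron transcripts and 8 of processed transcripts.

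The 9 genes were not poor in CpG. Their median density was 6.79 CpG per 100 bp, with a range of 1.90 to 10.7, and 7 of the 9 lay above the median of protein-coding genes, which was 4.10. The ordering by CpG density and the ordering by NMI differed at both ends. Muc1 had the lowest density of the 9 and the only NMI at an outermost 5′ end, and Ovol1, with the highest density, had no NMI within 2000 bp.

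**Figure D1:**
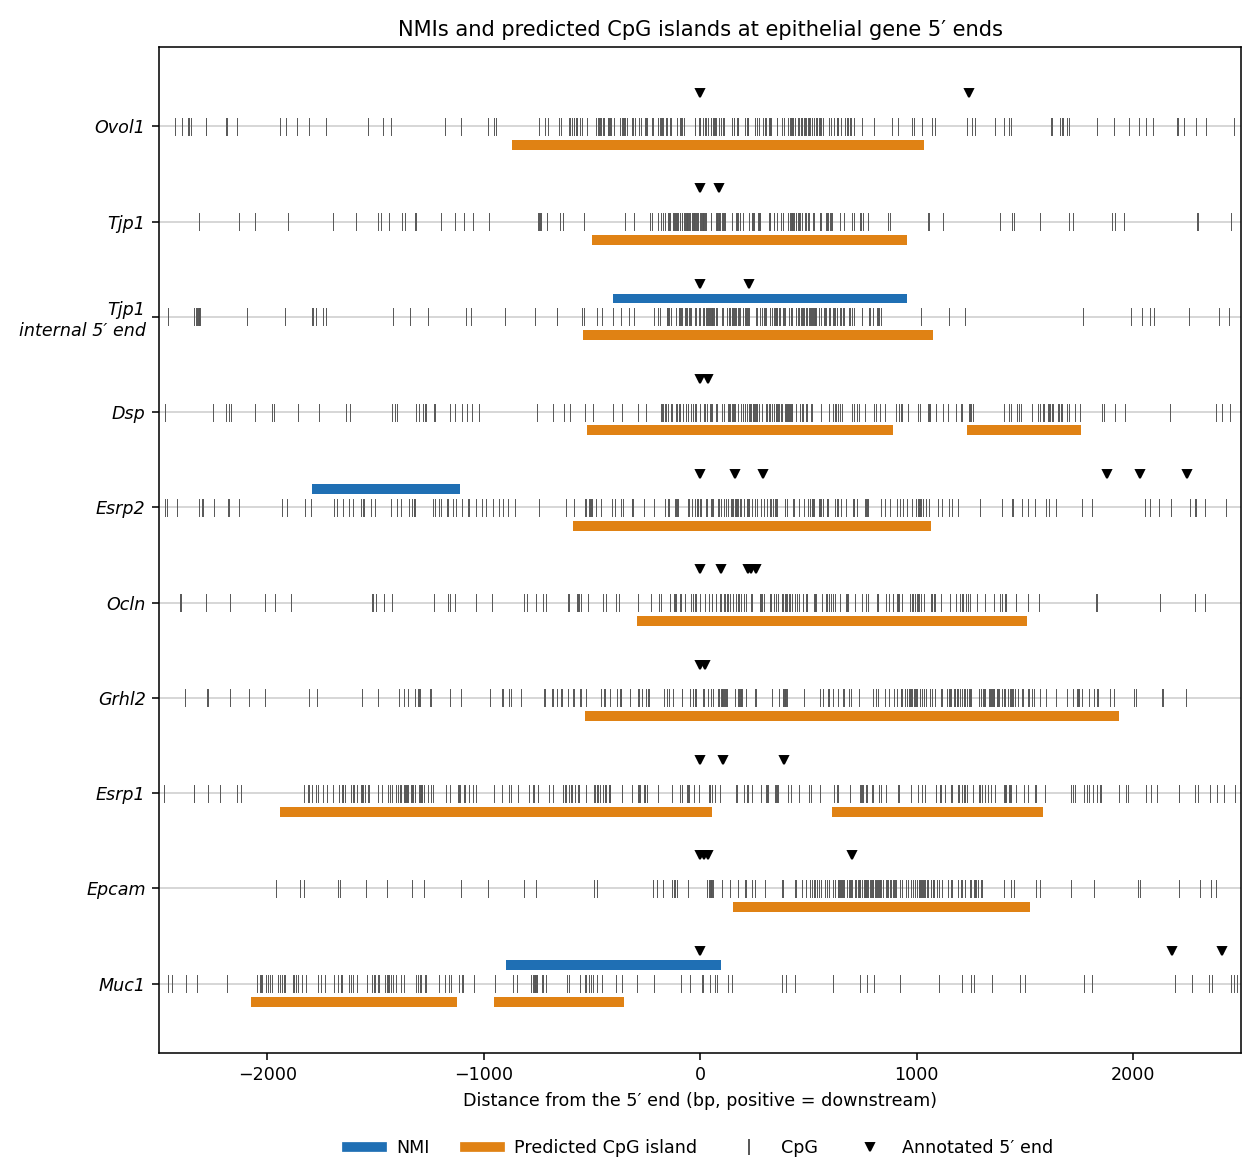
Each row spans 2500 bp on either side of a 5′ end (x axis, bp, positive downstream): the outermost 5′ end of each gene, and for Tjp1 also the internal 5′ end of Tjp1-202. Blue bars are NMIs, orange bars are CpG islands predicted from the sequence, grey ticks are single CpG and triangles are annotated 5′ ends. NMIs are drawn at Muc1, upstream of Esrp2 and at the internal Tjp1 5′ end, while the predicted islands at the outermost 5′ ends of 7 genes have no blue bar over them.

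A few starts are shown so that the CpG content can be read directly. Each stretch but the Esrp2 one is the 250 bases before a 5′ end on the gene's own strand, in mm10, with every CpG in capitals. The outermost Muc1, Tjp1 and Epcam starts were among those set by rule, and the internal Tjp1 start and the middle of the Esrp2 NMI were added after their values were seen.
Muc1, outermost 5′ end, chr3:89228807-89229056, plus strand, under an NMI: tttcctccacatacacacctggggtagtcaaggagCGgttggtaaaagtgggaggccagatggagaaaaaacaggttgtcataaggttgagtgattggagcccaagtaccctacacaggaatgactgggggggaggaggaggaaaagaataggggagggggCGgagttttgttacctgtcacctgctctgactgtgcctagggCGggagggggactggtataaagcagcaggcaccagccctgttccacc
Tjp1, outermost 5′ end, chr7:65527782-65528031, minus strand, no NMI: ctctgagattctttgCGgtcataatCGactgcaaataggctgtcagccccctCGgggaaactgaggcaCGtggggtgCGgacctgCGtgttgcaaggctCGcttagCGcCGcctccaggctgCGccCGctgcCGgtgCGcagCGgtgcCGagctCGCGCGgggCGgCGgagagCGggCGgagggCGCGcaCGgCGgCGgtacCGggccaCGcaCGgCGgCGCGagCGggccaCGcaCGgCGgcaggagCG
Tjp1, internal 5′ end of Tjp1-202, chr7:65371240-65371489, minus strand, under an NMI: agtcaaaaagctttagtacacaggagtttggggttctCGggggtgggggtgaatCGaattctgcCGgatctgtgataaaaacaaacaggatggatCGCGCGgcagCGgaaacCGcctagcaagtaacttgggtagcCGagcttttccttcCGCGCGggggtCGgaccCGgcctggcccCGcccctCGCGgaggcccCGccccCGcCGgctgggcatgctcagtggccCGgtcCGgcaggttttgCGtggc
Epcam, outermost 5′ end, chr17:87635729-87635978, plus strand, no NMI: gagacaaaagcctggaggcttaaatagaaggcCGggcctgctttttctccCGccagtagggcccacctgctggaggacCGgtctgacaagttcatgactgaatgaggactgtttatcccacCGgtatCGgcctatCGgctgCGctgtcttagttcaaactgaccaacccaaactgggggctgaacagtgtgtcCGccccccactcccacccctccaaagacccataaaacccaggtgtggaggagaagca
Esrp2, middle of the upstream NMI, chr8:106138302-106138551, minus strand: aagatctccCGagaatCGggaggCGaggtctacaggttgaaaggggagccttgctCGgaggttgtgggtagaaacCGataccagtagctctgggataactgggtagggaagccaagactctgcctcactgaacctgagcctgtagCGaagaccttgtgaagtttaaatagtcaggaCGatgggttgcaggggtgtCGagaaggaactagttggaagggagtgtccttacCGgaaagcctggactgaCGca
The Muc1 stretch held 3 CpG in 250 bases and lay inside an NMI. The outermost Tjp1 stretch held 38 CpG, more than 98.1% of 21931 promoters of the same length, and had no NMI. The internal Tjp1 stretch held 23, the Esrp2 stretch 10 and the Epcam stretch 8.

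Tjp1 encodes ZO-1, the cytoplasmic scaffold that anchors tight junction strands to actin. The gene (chromosome 7, 65296165 to 65527781, minus strand) has 7 transcripts with 6 distinct 5′ ends. Its NMI (65370283 to 65371642) was 1360 bp wide and held 139 CpG, or 10.2 per 100 bp, a density above that of 92.4% of the NMIs at protein-coding 5′ ends. It covered 2 internal 5′ ends, that of Tjp1-202 at 65371239 and that shared by Tjp1-201 and Tjp1-207 at 65371015, and reached from 403 bp upstream to 956 bp downstream of the former. Tjp1-202 carries the principal-isoform tag of the annotation, and the RefSeq start of Tjp1 lay 5 bp from it. The outermost 5′ end lay 156542 bp farther upstream, and its nearest NMI was 116607 bp away.

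The internal and outermost Tjp1 starts were alike in CpG count and unlike in NMI. Within 500 bp of each there were 103 CpG, with 10.3 per 100 bp at both. The ratio of observed to expected CpG, which is near 1 where CpG has not been lost over evolution, was 0.956 at the internal start and 0.996 at the outermost. The outermost start belongs to Tjp1-206, a retained-intron transcript with support level 3, and 85 bp downstream of it starts Tjp1-205, a coding transcript with support level 5, where level 1 is the best supported and 5 the least. An NMI at a 5′ end but not at the outermost was found for 4.99% of protein-coding genes. Of those with a predicted CpG island but no NMI at the outermost 5′ end, 9.37% had an NMI at another 5′ end, as Tjp1 did.

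Ocln encodes occludin, a membrane protein of the tight junction strand itself. All 5 of its 5′ ends (chromosome 13, 100552460 to 100552718, minus strand) fell within 258 bp of each other, and none lay in an NMI. The density was 6.79 CpG per 100 bp at the outermost 5′ end and up to 8.09 at the others. The nearest NMI was 59984 bp downstream, at the start of Gtf2h2, a subunit gene of the general transcription factor TFIIH. Among the 2034 protein-coding genes within 0.5 CpG per 100 bp of Ocln, 82.4% had an NMI at a 5′ end.

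Dsp encodes desmoplakin, the plakin that couples desmosomes to keratin filaments. Its outermost 5′ end (chromosome 13, 38151294, plus strand) had 92 CpG within 500 bp, or 9.19 per 100 bp, and a second coding transcript started 34 bp downstream. The nearest NMI lay 53320 bp downstream, at Snrnp48. A non-coding transcript inside the gene had 0.899 CpG per 100 bp at its 5′ end, 26247 bp from that NMI. Of the 1067 genes of like density, 84.5% had an NMI.

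Epcam encodes an adhesion glycoprotein of the basolateral epithelial membrane. Its outermost 5′ end (chromosome 17, 87635979, plus strand) had 31 CpG within 500 bp, or 3.10 per 100 bp, and 29.2% of that window was repeat sequence. An internal 5′ end 703 bp downstream was far richer, with 105 CpG or 10.5 per 100 bp. It is that of Epcam-204, a coding transcript with the principal-isoform tag, which a transcript at the outermost 5′ end carries too. It lay in a predicted island of 1376 bp that ran from 150 to 1525 bp downstream of the outermost 5′ end. No NMI lay at either start, and the nearest was 35336 bp from the internal one. By its outermost 5′ end Epcam is compared with genes of which 36.3% had an NMI (1541 genes, 95.0% exact binomial interval 33.9% to 38.7%), a share that does not describe its internal start.

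Muc1 encodes a transmembrane mucin of the apical surface. Its NMI (chromosome 3, 89228161 to 89229153) was 993 bp wide and ran from 896 bp upstream to 96 bp downstream of the 5′ end of Muc1-201, the coding transcript. It held 35 CpG, or 3.52 per 100 bp, and a ratio of observed to expected CpG of 0.454. Among the 9581 NMIs at protein-coding 5′ ends, 2.22% had a lower density, while the median of that set was 6.89 per 100 bp. The window around the 5′ end held 19 CpG, or 1.90 per 100 bp. The other 5′ ends of Muc1, of non-coding transcripts at 2182 and 2414 bp downstream, lay 2086 and 2318 bp from the NMI.

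An NMI at a 5′ end with so low a density in the window around it was rare. The window reached 500 bp to each side, whereas the Muc1 NMI reached 896 bp upstream and 96 bp downstream. The shares below thus rank the window, which the NMI filled only in part, and not the NMI itself. Of the 2590 protein-coding genes within 0.5 CpG per 100 bp of Muc1, 14.98% had an NMI at some 5′ end (interval 13.6% to 16.4%), and 79 of them, or 3.05%, had it at the outermost (interval 2.42% to 3.79%). Among the 9330 genes with an NMI at the outermost 5′ end, 18 had a lower density than Muc1. Such binomial intervals cover counting error only. The Muc1 NMI covered 90.7% of a predicted island of 601 bp that ended 352 bp short of the 5′ end. A further predicted island of 954 bp, from 2077 to 1124 bp upstream of Muc1, had no NMI. It holds the outermost 5′ end of Mtx1, a gene of the mitochondrial outer membrane that runs in the opposite direction. The Muc1 NMI was the nearest to that 5′ end, at 1073 bp, so it lay between the starts of the 2 genes. A separate NMI of 1418 bp lay at a downstream 5′ end of Mtx1.

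Grhl2 encodes a grainyhead transcription factor that activates junction genes. It stood farthest from any NMI of the 9 genes. The outermost 5′ end (chromosome 15, 37233036, plus strand) was 224977 bp from the nearest, which lay upstream at Zfp706, and 16.1% of protein-coding genes were farther from theirs. None of its 5 distinct 5′ ends lay closer than 182717 bp. The density was 6.09 CpG per 100 bp, and 78.7% of the 2230 genes of like density had an NMI.

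Ovol1 encodes a zinc finger repressor that restrains mesenchymal genes. With 107 CpG, or 10.7 per 100 bp, at its outermost 5′ end (chromosome 19, 5560646, minus strand) it exceeded 95.0% of protein-coding genes in density. The nearest NMI was 6427 bp upstream, at Ap5b1, whose outermost 5′ end had the same density of 10.7 and an NMI of 2321 bp. Of the 635 genes of like density, 84.4% had an NMI (interval 81.4% to 87.1%). A second Ovol1 5′ end, 1243 bp downstream, had 2.30 CpG per 100 bp and no NMI.

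Esrp1 and Esrp2 encode related RNA-binding proteins that set the epithelial pattern of alternative splicing. At Esrp1 (chromosome 4, outermost 5′ end 11386783, minus strand) the density was 5.59 CpG per 100 bp with an observed to expected ratio of 0.585, and the nearest NMI lay 64210 bp downstream at Dpy19l4. At Esrp2 (chromosome 8, outermost 5′ end 106136974, minus strand) the density was 7.39 with a ratio of 0.754, and an NMI lay 1110 bp upstream. Among genes of like density 76.9% had an NMI for Esrp1 and 83.1% for Esrp2. Neither had one at a 5′ end.

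The NMI near Esrp2 (106138084 to 106138769) was narrow and held little CpG beside the NMIs at protein-coding 5′ ends. It was 686 bp wide, wider than 11.04% of those, while over all NMIs the lower quartile was 572 bp and the median 990 bp. It held 26 CpG, or 3.79 per 100 bp, a density above that of 3.30% of the NMIs at protein-coding 5′ ends. It contained no annotated 5′ end and overlapped an exon of the non-coding gene 1810019D21Rik on the opposite strand, whose nearest 5′ end was 1019 bp away. The predicted island at the Esrp2 start, 1657 bp wide and ending 587 bp upstream, was not reached by it. Under looser island criteria (windows of 200 bp, 50% G and C, a ratio of 0.6) a further island lay from 1752 to 837 bp upstream of Esrp2, and the NMI covered 70.2% of it. The joined island had a ratio of 0.573 as a whole, below the limit that its windows met. Among protein-coding genes with no NMI at a 5′ end, 4.15% had one within 2000 bp, as Esrp2 did.

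**Figure D2:**
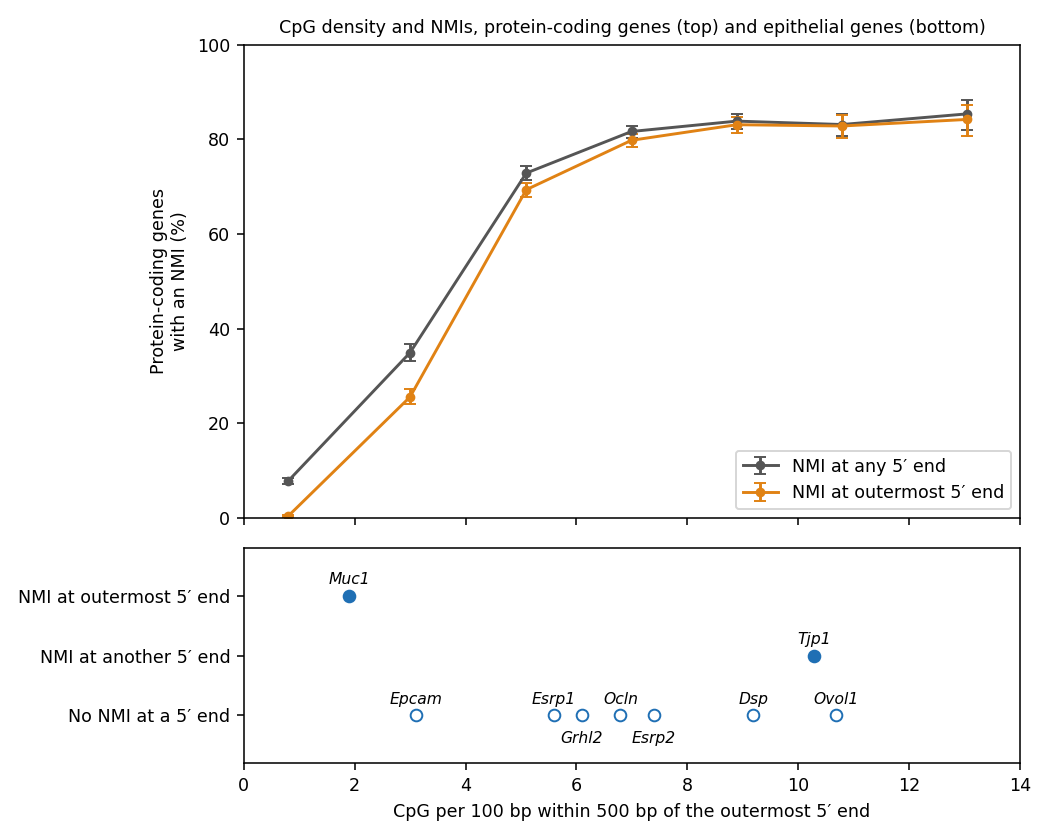
Top, the share of protein-coding genes with an NMI (y axis, percent) in bins of CpG density (x axis, CpG per 100 bp within 500 bp of the outermost 5′ end), at any 5′ end in grey and at the outermost in orange, with bars for the 95% exact binomial interval and points at the median density of each bin. Bottom, the 9 epithelial genes at their own density on the same x axis, in 3 rows by where their NMI lay, with open circles for genes without one at a 5′ end. Muc1 sits alone at the left with an NMI at its outermost 5′ end, and 6 of the 7 genes without one at a 5′ end lie where the curves are at or above 69.3%.

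Over all protein-coding genes the share with an NMI at the outermost 5′ end climbed from 0.407% below 2 CpG per 100 bp to 25.6% between 2 and 4 and 69.3% between 4 and 6, and lay between 79.8% and 84.2% above that. Muc1 fell in the lowest of these bins and Epcam in the next. Esrp1 fell between 4 and 6. Grhl2, Ocln and Esrp2 fell between 6 and 8, Dsp between 8 and 10, and Tjp1 and Ovol1 between 10 and 12. Thus 6 genes lay in bins where at least 79.8% of genes had an NMI at the outermost 5′ end and none of the 6 had one there. For Tjp1 that end is the start of a retained-intron transcript. Its principal-isoform start, that of Tjp1-202, had the same 10.3 CpG per 100 bp and lay in an NMI. Since the 9 genes were chosen by name and not drawn, these shares describe them and test nothing.

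The sequence was also scanned for CpG islands, taken as joined windows of 500 bp with at least 55% G and C and an observed to expected ratio of at least 0.65. The limits applied to each window, and a joined stretch was not checked again as a whole. A predicted island lay at a 5′ end of 8 of the 9 genes, Muc1 being the exception, beside 58% of protein-coding genes. At the outermost 5′ end it lay at 7, beside 51.7%. The 7 outermost islands were 1415 bp (Dsp) to 2467 bp (Grhl2) wide, and none had an NMI over any base. For comparison, 77% of protein-coding genes with an island at the outermost 5′ end had an NMI at that end. Of the 9 islands that held any 5′ end, only the internal Tjp1 island of 1619 bp had an NMI, which covered 84.0% of it. Counted by gene, that is 1 of the 8 genes with an island at a 5′ end. Among protein-coding genes with an island at a 5′ end, 78.2% had an NMI over it. Repeat sequence, where uniquely placed reads are fewer, made up 4.70% (Ovol1) to 29.2% (Epcam) of the 1001 bp windows, and its part in the result was not tested.

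**Figure D3:**
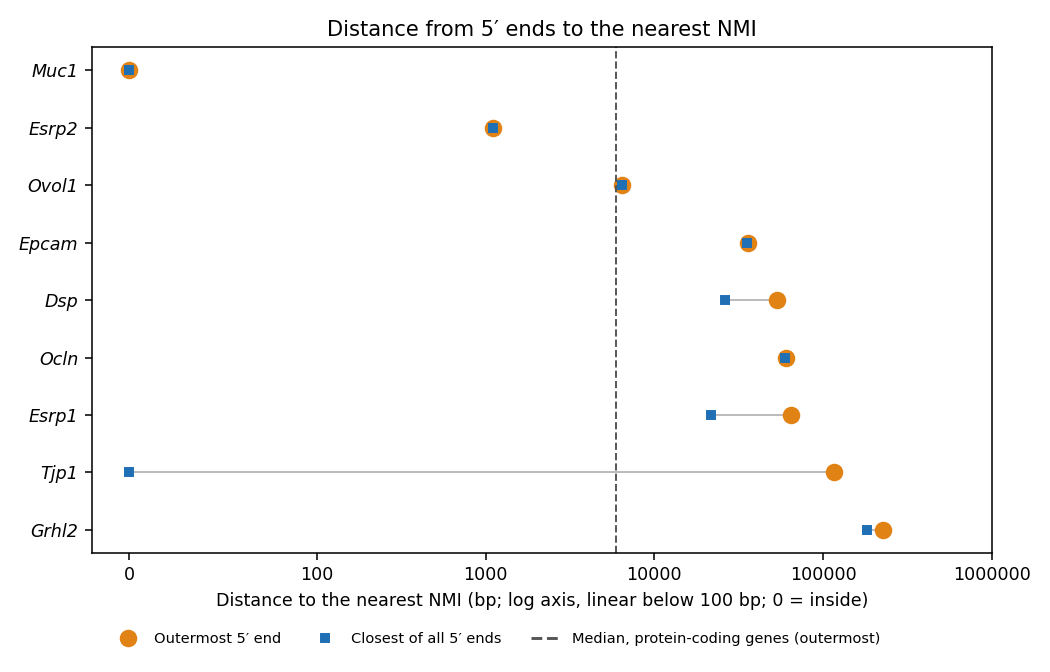
Distance (x axis, bp, log scale that is linear below 100 bp, 0 meaning inside) from each gene's outermost 5′ end (orange circles) and from whichever of its 5′ ends was closest (blue squares) to the nearest NMI. The dashed line is the median over protein-coding genes from the outermost 5′ end, 5922 bp, and 7 of the 9 orange circles lie to its right, from Ovol1 at 6427 bp to Grhl2 at 224977 bp.

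Muc1 and Esrp2 lay closer to an NMI than the protein-coding median of 5922 bp and Ovol1 just beyond it, while the other 6 lay at 36039 bp (Epcam) or more when measured from the outermost 5′ end. The median of the 9 genes was 53320 bp. Counting from the closest 5′ end brought Tjp1 to 0 and moved Dsp to 26247 bp, Esrp1 to 21672 bp and Grhl2 to 182717 bp. Epcam and Ocln, at 35336 bp and 59726 bp, hardly moved.

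The regions around the 9 genes did contain NMIs. Of the 18 protein-coding genes that flank them, the nearest on each side, 15 (83.3%) had an NMI at a 5′ end, beside 47.5% of all protein-coding genes. Each of the 18 also had a predicted island at a 5′ end. Among protein-coding genes with such an island, 78.2% had an NMI over it, so the flanking genes lay near that share. Both flanking genes had an NMI for Dsp, Epcam, Muc1, Ovol1, Esrp1 and Esrp2. Dsp, for example, lay between Riok1 with an NMI of 1773 bp and Snrnp48 with 907 bp, and upstream of Epcam lay Calm2 with 1894 bp. For the remaining 3 genes a single neighbour had an NMI. The neighbours without were Marveld2 beside Ocln, Ncald beside Grhl2 and Fam189a1 beside Tjp1, and the last had 12.4 CpG per 100 bp at its outermost 5′ end.

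Of 15 paralogs of the 9 genes, 2 had an NMI at a 5′ end, among them Grhl1 (1108 bp), beside 47.5% of protein-coding genes. Of the 13 without, 7 had a predicted island there, among them Tjp3, Marveld2, Marveld3, Ppl, Grhl3 and Ovol2. Of the 11513 protein-coding genes without an NMI at a 5′ end, 2849 had such an island. Tjp3, which encodes ZO-3, had its nearest NMI at 962 bp and Grhl3 at 3124 bp. The 6 with neither were Evpl, Ovol3 and the mucins Muc4, Muc15, Muc16 and Muc20, whose densities ran from 0.500 (Muc4) to 4.00 (Evpl) CpG per 100 bp, where NMIs were less common among protein-coding genes in general. Within the grainyhead family an NMI thus lay at Grhl1 but not at Grhl2 or Grhl3.

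Epithelial genes beyond the 9 were counted in 5 lists of 84 genes, which include some of the paralogs above. In all, 40 of the 84 had an NMI at a 5′ end, or 47.6% beside 47.5% of all protein-coding genes. The list genes were richer in CpG than that background, with a median of 6.09 per 100 bp against 4.10. A predicted island lay at a 5′ end of 65 of the 84, beside 58% of protein-coding genes. Of those 65, 40 had an NMI at a 5′ end, beside 9867 of the 12716 protein-coding genes with an island. The lists differed among themselves, from 87.5% of the genes of the apico-basal polarity complexes to 16.7% of the surface glycoproteins and proteases. Their median CpG density ran from 8.54 to 3.65 per 100 bp over the same 2 lists. The differences between lists were not tested.

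Of 16 polarity complex genes, 14 had an NMI, the widest at Dlg1 (1813 bp), Mark2 (1754 bp) and Pard3 (1750 bp), which encode a Scribble-complex scaffold, a kinase that marks the basolateral side and a PAR-complex scaffold. The 2 without were Prkcz (10.3 CpG per 100 bp), an atypical protein kinase C, and Patj (7.49), a scaffold of the Crumbs complex. Among 22 tight junction genes 10 had an NMI, with the widest at the scaffolds Magi1 (2601 bp) and Magi3 (2007 bp) and at F11r (1637 bp), which encodes the adhesion molecule JAM-A. Of the 12 without, the densest in CpG were Marveld2 (7.49), Lsr (6.89) and Marveld3 (6.79), of which Marveld2 and Lsr encode proteins of tricellular junctions.

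Of 18 desmosome and adherens junction genes 9 had an NMI, the widest at Afdn (2265 bp), Nectin1 (2214 bp) and Pkp4 (1969 bp), and Perp (6.99 CpG per 100 bp), Cdh1 (6.69) and Ppl (6.69) were the densest without. Cdh1 encodes E-cadherin, the adhesion protein that defines adherens junctions, and its nearest NMI was 73033 bp away. Among 16 transcription and splicing regulators 5 had an NMI, the widest at Gata3 (7934 bp) and Tfap2a (7153 bp), with Klf4 next (2208 bp). Tfap2c (6.89) and Ovol2 (5.29) were among the densest without. Of 12 surface glycoproteins and membrane proteases, Cd24a (2581 bp) and Sdc1 (2083 bp) had an NMI, while Spint1 (9.39), Spint2 (8.79) and St14 (7.29), which encode a pair of protease inhibitors and the protease matriptase that they block, did not.

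**Figure D4:**
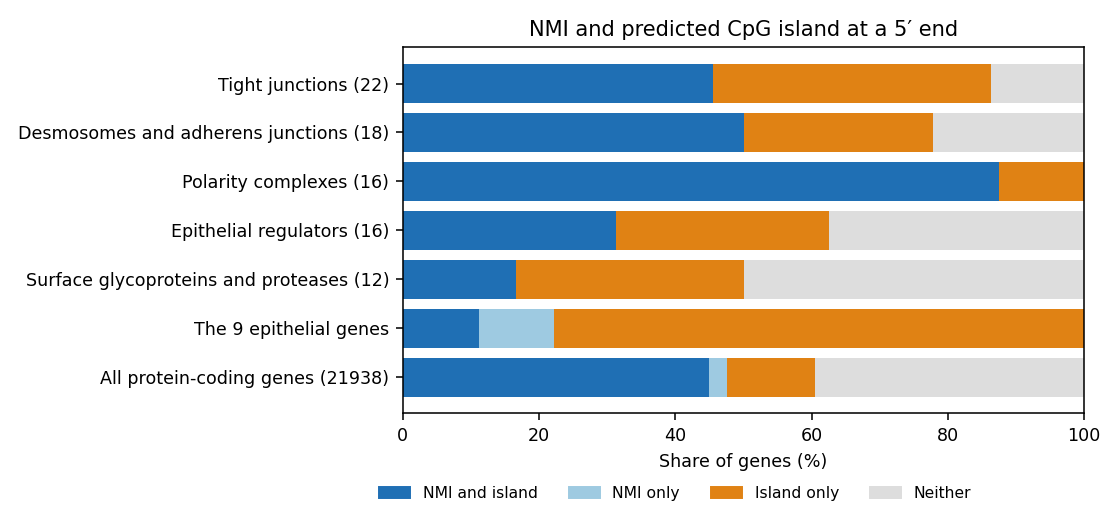
Genes of each epithelial list, the 9 epithelial genes and all protein-coding genes (rows), divided by what lay at their annotated 5′ ends (x axis, percent of the genes in the row; colours as in the key). The polarity complex genes have the longest bar with an NMI, at 87.5%, and among the 9 epithelial genes a predicted island without an NMI is the commonest state, at 7 genes.

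Of the 84 list genes, 65 had a predicted island at a 5′ end, and 25 of these had no NMI at a 5′ end. The 9 epithelial genes had 7 in that state, 1 with both (Tjp1) and 1 with an NMI but no island at the 5′ end itself (Muc1). Of the 21938 protein-coding genes, 12716 had an island at a 5′ end. Of these, 9867 had an NMI as well and 2849 had an island only, while 558 further genes had an NMI only.

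Sequence motifs were counted on both strands in the 250 bases before the outermost 5′ end, and set beside 21931 promoters of the same length. The GC box GGGCGG, which SP factors bind, was present at 7 of the 9 genes, all but Grhl2 and Esrp2, and in 39.0% of all promoters. This motif itself contains a CpG, and 7 of the 9 genes lay above the protein-coding median in CpG density. The share of promoters of like density with a GC box was not computed. CACCTG, an E-box of the kind bound by ZEB and SNAIL repressors of epithelial genes, was present at Epcam and Muc1 with 2 copies each and at Grhl2 and Esrp1 with 1 each, and in 17.4% of all promoters. TATAAA was found at Muc1 alone among the 9 and in 11.5% of all promoters, and can be read near the 3′ end of the Muc1 sequence above. CCAAT was found at Muc1, Grhl2 and Esrp1 and in 36.0%, and AACNGGTT, of the form bound by grainyhead factors, at Muc1 and Ovol1 and in 1.79%. Muc1 held each of these 5 motifs, and the promoter of the internal Tjp1 start held GC boxes only. These are matches of letters and not measured binding, and whether they go with NMIs was not tested.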

How the data were processed

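The sources are the labels, the study's methods and the submitters' processing notes. The authors mapped the BioCAP reads (Bowtie2, mm10), kept those with a single position and took out duplicates (SAMtools). They ran MACS on the rest to call NMIs, with a limit on the false discovery rate. The sources used here name no versions and no sequencing depth, nor do they say whether MACS was given the input library as its control. The deposited list has 3 columns (chromosome, start, end) and no score.

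Transcript 5′ ends came from GENCODE M21 and sequence from the GRCm38 genome of RefSeq. An NMI was at a 5′ end when it covered that base. CpG density, GC content and predicted islands were computed in Python 3.11.15 with numpy 2.4.6, exact binomial intervals (Clopper-Pearson) with scipy 1.17.1, and plots with matplotlib 3.10.9. Genes of like density lay within 0.5 CpG per 100 bp. The code was tested on simulated data.

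The 9 genes and the 5 lists were chosen with earlier results of these data known. Named genes were the 9, their paralogs, flanking genes, genes with a 5′ end near their NMIs, and from each list up to 3 with the widest NMI and up to 3 of the densest without one. The alternatives tried were the distance to a 5′ end, the outermost 5′ end only, other windows for CpG, looser island criteria and other annotation subsets. The RefSeq promoter table held 5 of the 9 genes and served to check their starts. Some genes and a sequence that these rules select are not reported here.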

Additional observations from a re-analysis of the deposited data

How the results depend on the processing

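Of 23 alternatives tried over 5 results, 20 left the value within a set tolerance and 3 moved it. The tolerance is not a measured spread, since there was 1 library. Under it a fall from 3 genes to 2 counted as the same and a fall from 2 to 1 as moved. With the outermost 5′ end only, the number of the 9 genes with an NMI at a 5′ end fell to 1, since the Tjp1 NMI lies at internal 5′ ends, and that within 2000 bp to 2. The median CpG density of the 9 genes was 7.39 per 100 bp with 250 bp on each side of the 5′ end and 5.85 with 1000 bp, against 6.79 with 500 bp. The 2 genes with an NMI at a 5′ end were 2 also with coding or basic transcripts only, within 250 or 1000 bp, and without the NMIs of 572 bp or less. The lists had 37 to 42 genes with an NMI, and a predicted island lay at 8 of the 9 genes under looser criteria too. No paired analysis was possible because the NMIs came from 1 BioCAP library and no result came from a test. For the same reason no replicate could be left out. The list gives no read depth, so that whether an NMI was missed for want of reads was not tested.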
